A study of Rattus norvegicus with 39 samples.

Results

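The genes of collagens, laminins and integrins were followed across 7 groups of rat livers, as 77 of 14217 genes measured. Members were all genes whose symbol in the platform annotation has the form of a collagen chain (Col), a laminin chain (Lama, Lamb or Lamc) or begins with Itga or Itgb, read from probe sets with 1 symbol. They comprise 41 collagen, 10 laminin and 22 integrin genes. The other 4 members, Itgb1bp1, Itgb1bp2, Itgb3bp and Itgbl1, match the name pattern and are no subunits of these molecules. The members came from 112 of 31099 probe sets, and for the 26 members with several probe sets the brightest over all arrays stood for the gene. The name rule itself used no measured value, though the members were chosen with earlier results of these data known.

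The arrays held total RNA from the left lateral liver lobe of rats 5 to 6 weeks old, killed 48 h after treatment, with 1 array per rat and 39 arrays in all. ANIT (125 mg/kg in corn oil), DMN (15 mg/kg in water), DNP (15 mg/kg in water) and Roziglitazone, as the labels spell it (1000 mg/kg in methylcellulose), were given by mouth. NMF (1000 mg/kg) and Caerulein (50 µg/kg) were injected into the peritoneum in saline. Each compound group had 5 rats. The 9 Control rats were untreated and received no vehicle, so that compound, vehicle and route cannot be told apart in a comparison with Control. The abbreviations usually stand for alpha-naphthylisothiocyanate, dimethylnitrosamine, dinitrophenol and N-methylformamide; ANIT is known for injury to bile duct cells, and DMN and NMF for injury to hepatocytes. The labels give no strain or sex, and no vehicle control was analysed here.

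Collagens are trimers of alpha chains. Those of types I, III and V build fibrils, type IV forms the mesh of basement membranes, and types VI, XII and XIV sit on or between fibrils. Laminins join an alpha, a beta and a gamma chain and form the other network of basement membranes. Integrins pair an alpha with a beta subunit, span the cell membrane and hold cells to collagen, laminin or to other cells. In liver, hepatic stellate cells and portal fibroblasts are known as the main source of fibrillar collagen, bile duct and vascular basement membranes carry laminin, and the sinusoid wall has little laminin and no closed basement membrane.

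Values are log2 intensities. The test was limma, a linear model fitted here to all 39 arrays, with p adjusted over the 14217 genes of each comparison; a gene counts as called where that adjusted p is below 0.05. Hepatocyte markers lay high in every group, and their summed intensity overlapped in all 7 groups. The labels of 3 arrays were treated as in doubt, a choice made after seeing their values. Over all genes, ANIT 3 resembled the DMN group (r = 0.705) more than the remaining ANIT arrays (r = 0.301), Roziglitazone 2 resembled ANIT (r = 0.802), and DMN 2 had r = 0.00344 with the remaining DMN arrays; genes are not independent replicates. Of the 39 arrays, 24 had their highest r with a group other than their own, 20 of them in Control, Caerulein, DNP and Roziglitazone. NMF 3 had r = 0.157 with its own group and 0.180 with ANIT, NMF 4 had 0.289 and 0.338, and Roziglitazone 1 had −0.221 with its own group and 0.354 with DNP; these were not counted among the doubted arrays. GAPDH signal at the 5′ end was low in 6 other arrays (DMN 3, DNP 1, NMF 3, Roziglitazone 1, Control 4 and Control 5), at 80.9 to 171.5 against 1441.8 to 7829.3 in the rest. All arrays were kept in the main fit given here, and values without either set, also chosen after seeing the data, are given where they bear on a call against Control. The mean of 9 members over all arrays lay at or below 4.89, the highest value of 14 bacterial spike probe sets on any array, so that these were near background: Col6a6, Col9a1, Col10a1, Col17a1, Col25a1, Itga8, Itga11, Itgb6 and Itgbl1. In bulk liver RNA, fewer cells of a type and less RNA per cell cannot be told apart.

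After ANIT, 15 of the 77 members were called against Control, 5 higher and 10 lower, where 16.5% of all genes were called, 8.19% higher and 8.29% lower. The members' median log2 fold change was −0.19 and that of all genes −0.09. After DMN, 11 members were called, 3 higher and 8 lower, against 10.4% of all genes, 5.87% higher and 4.53% lower, with a median of −0.13 beside −0.06. After NMF, 12 members were called and all 12 were lower, against 7.48% of all genes, 3.85% higher and 3.63% lower, with a median of −0.16 beside −0.05. The arrays did not overlap with Control in 8 members after ANIT, 3 after DMN and 3 after NMF, where 5.74%, 2.33% and 3.94% of all genes did not. Of the collagen genes, 9 of 41 were called after ANIT, 8 after DMN and 10 after NMF. Of the 10 laminin genes 3, 2 and 1 were called, and of the 22 integrin genes 2, 0 and 1; the count of 0 integrins in limma after DMN stands beside 3 at an unadjusted p under 0.05, which 30.9%, 23.2% and 19.6% of all genes had after ANIT, DMN and NMF.

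Scaling changed how the calls split. Once all arrays were shifted to a common median (centring), 7 members were higher and 7 lower after ANIT, 5 and 4 after DMN, and 0 and 7 after NMF; centring moved the median fold change of all genes after ANIT from −0.09 to 0.04 and after DMN from −0.06 to 0.05. Over all genes, 1165 were higher and 1179 lower after ANIT, against 1666 and 627 with centring; for DMN 834 and 644 became 1047 and 339, and for NMF 547 and 516 became 736 and 308. Without the 3 doubted arrays the counts were 7 higher and 8 lower after ANIT, 7 and 8 after DMN, and 0 and 12 after NMF, where 16%, 13.9% and 8.48% of all genes were called. Without the 6 arrays low in GAPDH 5′ signal they were 7 and 13, 5 and 5, and 0 and 12, where 25.5%, 9.66% and 9.58% of all genes were called. Leaving out DMN 4 gave 6 calls after DMN, and leaving out NMF 4 or NMF 5 gave 6 after NMF, where 7.6%, 5.14% and 5.06% of all genes were called.

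The 3 comparisons share the Control arrays. Of the 25 members called against Control, 14 were called in 1 comparison, 6 in both ANIT and DMN, 3 in both ANIT and NMF and 6 in both DMN and NMF, each including the 2, Col14a1 and Lama2, that were called in all 3. The fold changes of Col14a1 were −0.94, −0.80 and −1.22 and those of Lama2 −0.55, −0.61 and −0.54, in the order ANIT, DMN and NMF.

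**Figure D1:**
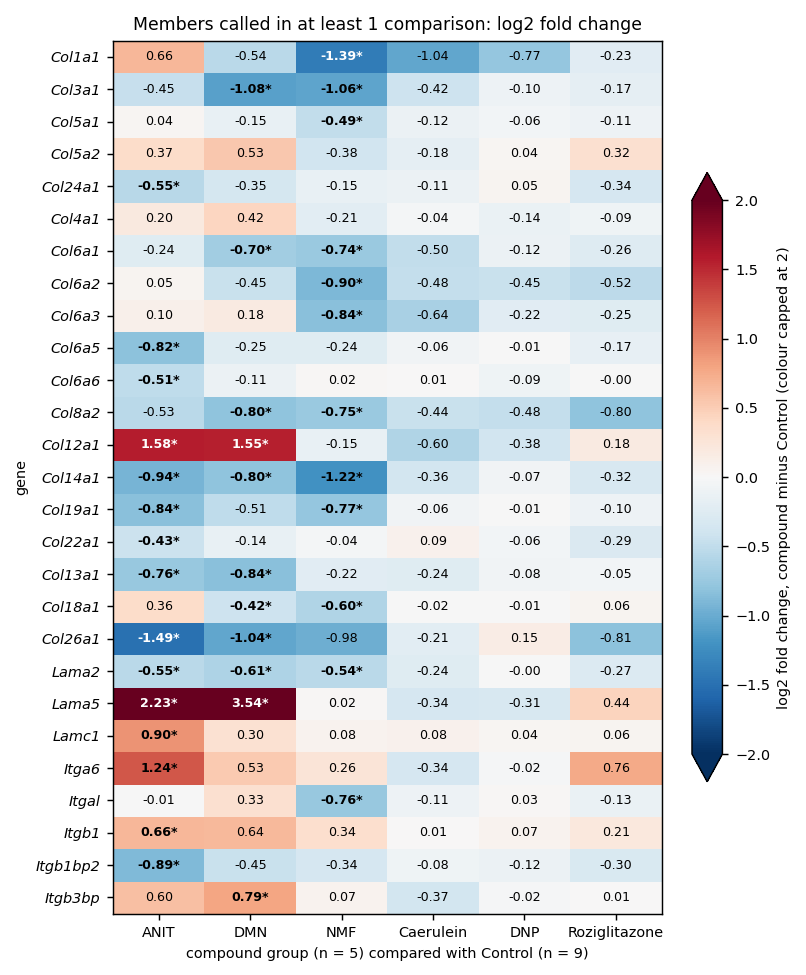
Heat map of the log2 fold change against Control (n = 9) of the 27 members called in at least 1 of the 11 comparisons, for each compound group (n = 5). Bold values with an asterisk were called by limma at an adjusted p under 0.05. Lama5 reached 3.54 after DMN and 2.23 after ANIT, NMF has calls in the lower direction alone, and Caerulein, DNP and Roziglitazone have none.

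Among the laminins, Lama5 made the largest change of any member. It encodes the alpha-5 chain, found in basement membranes of ducts and vessels. Control arrays ranged from 4.39 to 6.15 with a median of 5.46, beside a highest spike value of 4.89. The DMN arrays lay at 9.20, 7.49, 9.46, 9.49 and 9.07, and the ANIT arrays at 7.05, 7.73, 9.81, 6.78 and 6.76. All 5 arrays of either compound exceeded every Control array, and the highest ANIT value and the lowest DMN value belonged to the doubted arrays ANIT 3 and DMN 2. Lama5 thus rose from 5.40 ± 0.56 (SD, n = 9) to 8.94 ± 0.83 (SD, n = 5) after DMN, 11.7-fold (log2 fold change 3.54 ± 0.42 SE, adjusted p = 1.51e-06 in limma), and to 7.62 ± 1.28 (SD, n = 5) after ANIT, 4.68-fold (2.23 ± 0.42, adjusted p = 2.70e-04). The NMF arrays, at 5.15, 4.88, 6.03, 5.77 and 5.27, lay within the Control range.

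Lama5 was called in both comparisons under every alternative run that tested it. Its probe set was among the 30% dimmest genes, so the run without these did not test it. Without the 3 doubted arrays its fold changes were 3.91 after DMN and 1.68 after ANIT. The gene has 2 further probe sets, near background at means of 4.34 and 4.87, whose fold changes ran from −0.43 to 0.12 in ANIT and DMN and were not called. With the mean of the probe sets the calls held at fold changes of 1.14 after DMN and 0.46 after ANIT. In the doubted array Roziglitazone 2 Lama5 stood at 7.71, in Roziglitazone 1 at 6.42 and in the other 3 arrays of that group at 4.82 to 5.27.

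Lamc1 encodes the gamma-1 chain, the common partner in most laminins. In Control it ranged from 8.24 to 9.14 with a median of 8.49, and the ANIT arrays lay at 10.07, 9.97, 8.90, 9.45 and 8.96, of which 3 exceeded all Controls. It rose 1.86-fold after ANIT (0.90 ± 0.28 SE, adjusted p = 0.0219), a call lost without ANIT 1 or without ANIT 2 (adjusted p up to 0.0869). The call was also lost with the replicate number added to the model as a block (adjusted p = 0.116). No other group has the numbers of Control 6, 7, 8 and 9, so the block leaves these arrays out of the difference. The dimmer probe set of Lamc1 gave 0.18 and was not called. The fold changes were 0.30 after DMN (adjusted p = 0.563) and 0.08 after NMF (adjusted p = 0.931). Lamb1 and Lamb2, the beta chains, were not called in any of the 11 comparisons; after NMF they stood at −0.67 ± 0.24 (adjusted p = 0.0818) and −0.69 ± 0.27 (adjusted p = 0.129). Without the 6 arrays low in GAPDH 5′ signal Lamb2 was called after NMF (−0.65, adjusted p = 0.0362), and Lamb1 was called higher in ANIT than in NMF (0.87, adjusted p = 0.00873).

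Lama2, the alpha-2 chain known from muscle and nerve basement membranes, fell after all 3 compounds. Control arrays ranged from 7.29 to 8.14 with a median of 7.44. The ANIT arrays were at 6.92, 7.14, 6.59, 7.11 and 7.04, the DMN arrays at 6.54, 7.24, 6.74, 6.63 and 7.31, and the NMF arrays at 6.75, 7.09, 7.42, 6.60 and 6.96. ANIT arrays lay below every Control array, while DMN 5 and NMF 3 reached into the Control range. Lama2 fell by 0.55 ± 0.16 after ANIT (adjusted p = 0.0130), by 0.61 ± 0.16 after DMN (adjusted p = 0.00784) and by 0.54 ± 0.16 after NMF (adjusted p = 0.0234). With centring the ANIT and NMF calls were lost (adjusted p = 0.0566 and 0.0667). The ANIT call was also lost without ANIT 3 (adjusted p = 0.0570) and without the 3 doubted arrays (−0.45, adjusted p = 0.0535), and the NMF call without NMF 1, NMF 4 or NMF 5 (up to 0.113).

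**Figure D2:**
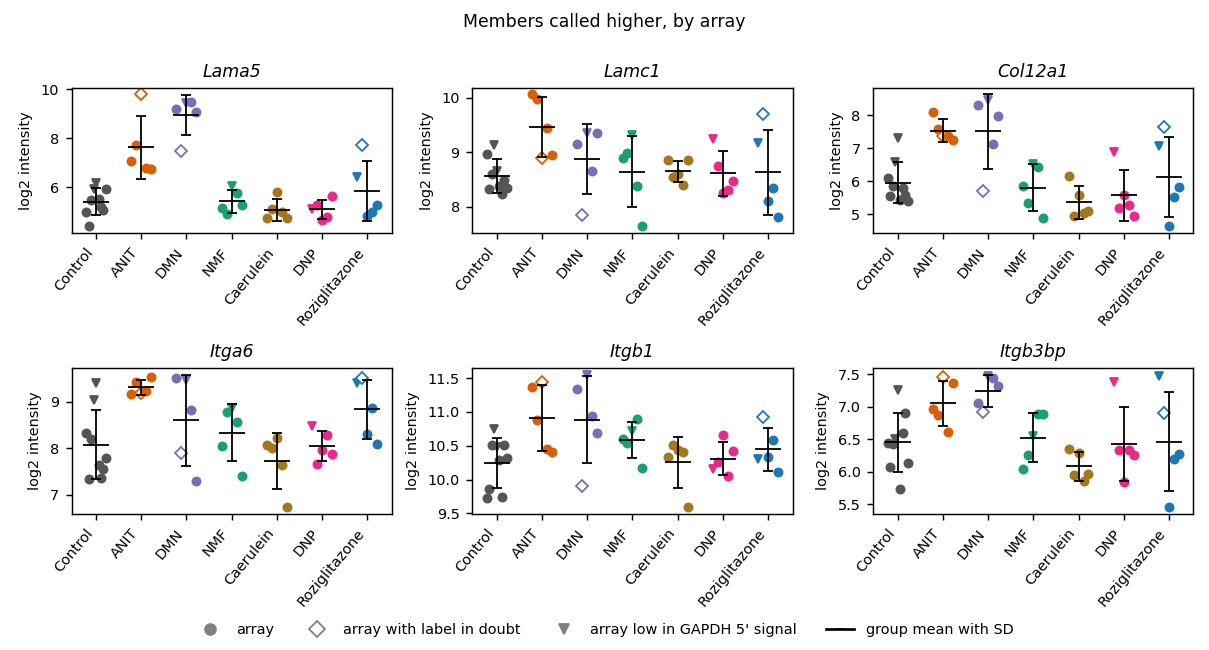
Log2 intensity of 6 members called higher after ANIT or DMN, by array, in the 7 groups (Control n = 9, others n = 5); bars are group means with SD, open diamonds the 3 arrays with labels in doubt and triangles the 6 arrays low in GAPDH 5′ signal. Lama5 lies at 7.49 to 9.49 in DMN against 4.39 to 6.15 in Control, and Col12a1 at 5.70 in DMN 2 against 7.13 to 8.45 in the other DMN arrays.

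The RefSeq promoter table (GRCr8) held 60 of the members, and the 250 bases before the start are shown for Lama5 and Lamc1, the laminin genes that rose. Capitals mark GGGCGG, the core of the GC box, on either strand.
Lama5 (chr3:187695975-187696224, minus strand): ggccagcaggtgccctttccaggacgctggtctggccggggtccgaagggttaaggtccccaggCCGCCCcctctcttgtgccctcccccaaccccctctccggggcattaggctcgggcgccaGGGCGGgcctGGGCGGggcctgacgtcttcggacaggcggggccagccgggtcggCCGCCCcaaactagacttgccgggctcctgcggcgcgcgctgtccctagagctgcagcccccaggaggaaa
Lamc1 (chr13:68051987-68052236, minus strand): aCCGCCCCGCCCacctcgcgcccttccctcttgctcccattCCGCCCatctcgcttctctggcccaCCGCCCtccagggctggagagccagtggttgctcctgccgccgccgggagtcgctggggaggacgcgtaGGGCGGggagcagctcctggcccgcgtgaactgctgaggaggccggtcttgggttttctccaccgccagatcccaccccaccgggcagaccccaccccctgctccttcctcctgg
Both windows are rich in G and C (72.8% and 71.2%). GGGCGG was found in 51.7% of the members' windows and in 32.4% of 27457 promoters. Neither window held CCAAT on either strand, which was found in 34.3% of all promoters and 25% of the members' windows. The same held for the TATA box form TATAAA, found in 13.1% and 10%. TGACTCA, a site form of AP-1, was not among the letters of these windows either and was found in 3.98% and 5%. The 4 motifs share no letters in these windows, while copies of GGGCGG can overlap; Lama5 holds 4 copies and Lamc1 5, of which the first 2 share a base. Such matches describe letters in a window and were not tested for function.

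Of 11 fibrillar collagens, 3 were called lower and 0 higher after NMF (median −0.41, all genes −0.05), 1 lower after DMN (median −0.31) and 1 lower after ANIT (median −0.27). These calls were 27.3%, 9.09% and 9.09% of the 11, beside 7.48%, 10.4% and 16.5% of all genes. At an unadjusted p under 0.05 there were 5, 4 and 3, beside 19.6%, 23.2% and 30.9% of all genes. The counts were not tested against each other. Col1a1 encodes the alpha-1 chain of type I collagen, the main fibril of scar tissue. Control arrays ranged widely, from 7.91 to 10.10 with a median of 8.92. The NMF arrays lay at 7.44, 7.12, 7.44, 7.92 and 7.54, the ANIT arrays at 9.58, 10.14, 8.13, 9.25 and 10.64, and the DMN arrays at 8.73, 8.36, 8.01, 8.40 and 8.23. NMF 4 met the lowest Control array and the other 4 NMF arrays lay below it, while 2 ANIT arrays lay above the highest. Col1a1 fell 2.63-fold after NMF, from 8.88 ± 0.70 (SD, n = 9) to 7.49 ± 0.29 (SD, n = 5; −1.39 ± 0.33 SE, adjusted p = 0.00472), a call kept under every alternative run. After ANIT it stood at 0.66 ± 0.33 (adjusted p = 0.162), and without the 3 doubted arrays at 1.02 and called (adjusted p = 0.0148). After DMN it stood at −0.54 ± 0.33 (adjusted p = 0.337).

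Col1a2, the partner chain of type I collagen, was not called in any of the 11 comparisons. The NMF arrays lay at 8.66, 8.12, 7.65, 8.45 and 8.36, inside the Control range of 8.05 to 10.51 except NMF 3. The fold change was −0.83 ± 0.39 after NMF (adjusted p = 0.222), and the gene's other probe set gave −1.25 ± 0.30 (adjusted p = 0.0106 over all probe sets). In the 6 arrays low in GAPDH 5′ signal Col1a2 stood at 7.07 (DMN 3), 7.05 (DNP 1), 7.65 (NMF 3), 7.30 (Roziglitazone 1), 8.24 (Control 4) and 8.05 (Control 5). Each is the lowest of its group, with both Control arrays the lowest of 9. Without these 6 arrays Col1a2 fell by 0.95 after NMF (adjusted p = 0.0494).

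Col1a2 has an entry in the promoter table and is shown because it is the type I chain whose probe sets differed. Capitals mark CCAAT, here as ATTGG on the printed strand, and TATAAA.
Col1a2 (chr4:33518307-33518556, plus strand): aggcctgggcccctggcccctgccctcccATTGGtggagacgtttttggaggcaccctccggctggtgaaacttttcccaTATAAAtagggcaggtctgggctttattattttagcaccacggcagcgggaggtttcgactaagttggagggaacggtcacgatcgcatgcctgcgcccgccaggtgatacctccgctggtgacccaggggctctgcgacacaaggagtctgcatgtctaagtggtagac
Its G and C content is 58.4%, and neither GGGCGG nor TGACTCA was found in it.

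Col3a1, whose type III collagen forms thin reticular fibrils along the sinusoids, fell after DMN and NMF. In Control it ranged from 11.32 to 12.41 with a median of 11.69. The DMN arrays were at 10.81, 11.10, 10.61, 10.44 and 10.56, and the NMF arrays at 10.83, 10.55, 10.97, 10.95 and 10.35. All 10 lay below every Control array. Col3a1 fell from 11.79 ± 0.33 (SD, n = 9) to 10.70 ± 0.26 (SD, n = 5) after DMN, 2.12-fold (−1.08 ± 0.20 SE, adjusted p = 4.15e-04), and to 10.73 ± 0.27 (SD, n = 5) after NMF, 2.08-fold (−1.06 ± 0.20, adjusted p = 5.00e-04). Both calls held under every alternative run. The ANIT arrays were at 11.65, 11.65, 10.29, 11.36 and 11.72, with the doubted array ANIT 3 apart from the rest, and the ANIT difference was not called (−0.45 ± 0.20, adjusted p = 0.119).

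Other fibrillar chains gave smaller differences. Col5a1, the alpha-1 chain of type V collagen, which starts fibrils, fell by 0.49 ± 0.14 after NMF (adjusted p = 0.0258), a call lost without NMF 3 or NMF 4 (up to 0.104). Its partner Col5a2 stood at 0.37 after ANIT, 0.53 after DMN and −0.38 after NMF, none called. Without the 6 arrays low in GAPDH 5′ signal Col5a2 was called higher after ANIT (0.50, adjusted p = 0.0301) and DMN (0.65, adjusted p = 0.0193), and without the doubted arrays after DMN (0.63, adjusted p = 0.0488). Col24a1, a fibrillar chain known from bone and cornea, lay at 5.23, 5.95, 5.77, 5.94 and 5.84 after ANIT against 5.89 to 6.65 (median 6.25) in Control, so the groups overlapped narrowly. It fell by 0.55 ± 0.15 (adjusted p = 0.00862), a call lost without ANIT 1, its lowest array (adjusted p = 0.0580).

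**Figure D3:**
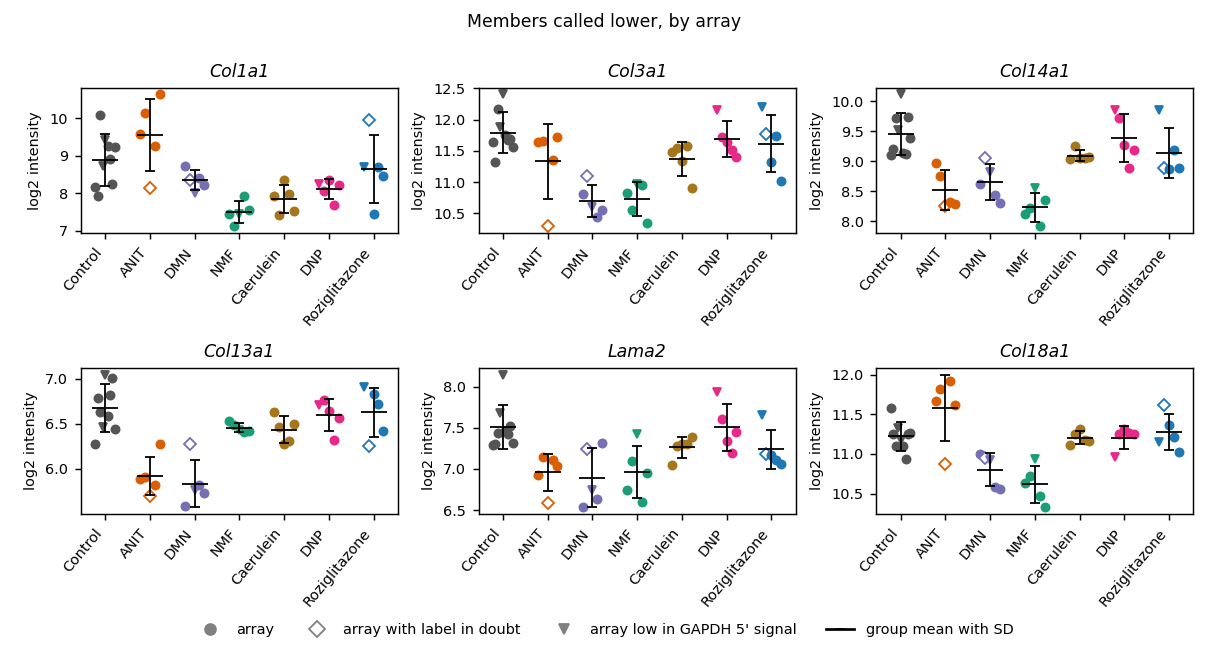
Log2 intensity of 6 members called lower in at least 1 comparison with Control, by array, in the 7 groups (Control n = 9, others n = 5); bars are group means with SD, open diamonds the 3 arrays with labels in doubt and triangles the 6 arrays low in GAPDH 5′ signal. Col3a1 lies at 10.35 to 11.10 in DMN and NMF against 11.32 to 12.41 in Control, and Col1a1 at 7.12 to 7.92 in NMF against 7.91 to 10.10.

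Limma called 0 of 8 basement membrane collagens after ANIT, 1 after DMN and 1 after NMF, beside 16.5%, 10.4% and 7.48% of all genes. After ANIT 2 had an unadjusted p under 0.05, as had 30.9% of all genes. Both calls were Col18a1, whose C-terminal fragment is endostatin and which hepatocytes are known to make. Control arrays ranged from 10.94 to 11.58 with a median of 11.25, the NMF arrays lay at 10.63, 10.73, 10.94, 10.47 and 10.33, the DMN arrays at 10.95, 10.92, 10.59 and 10.55 with DMN 1 just above them, and the ANIT arrays at 11.67, 11.82, 10.87, 11.92 and 11.62. NMF arrays lay below Control, NMF 3 by less than the printed digits show; 4 ANIT arrays lay above every Control, with ANIT 3 below every Control. Col18a1 fell by 0.60 ± 0.14 after NMF (adjusted p = 0.00340), held under every alternative run, and by 0.42 ± 0.14 after DMN (adjusted p = 0.0433), a call that 8 of 14 left-out arrays ended (up to 0.138), as did centring (0.196). After ANIT it stood at 0.36 ± 0.14 (adjusted p = 0.0656) with all arrays, at 0.49 with centring (adjusted p = 0.0208) and at 0.54 without the 3 doubted arrays (adjusted p = 0.00182).

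Col4a1 and Col4a2, the chains of the common type IV network, were not called against Control. Col4a1 stood at 0.20 after ANIT, 0.42 ± 0.16 after DMN (adjusted p = 0.0845) and −0.21 after NMF, and Col4a2 at 0.28, 0.29 and −0.50. After DMN, Col4a1 was called with centring (0.52, adjusted p = 0.0390), without the doubted arrays (0.52, adjusted p = 0.0244) and without the arrays low in GAPDH 5′ signal (0.52, adjusted p = 0.0475). The genes lie head to head, and the bases between their starts are shown because the pair is read from this stretch in opposite directions.
Col4a1-Col4a2 (chr16:84885521-84885596, plus strand, 76 bases): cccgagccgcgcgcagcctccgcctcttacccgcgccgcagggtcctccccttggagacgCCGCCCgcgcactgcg
It holds 1 GGGCGG, in capitals as CCGCCC, and none of the other motifs.

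Of 22 other collagens, 8 were called after ANIT (1 higher, 7 lower), 6 after DMN (1 and 5) and 6 after NMF (0 and 6). Their medians were −0.30, −0.19 and −0.15. These calls were 36.4%, 27.3% and 27.3% of the 22, beside 16.5%, 10.4% and 7.48% of all genes. Col12a1 was the member called higher. Type XII collagen coats fibrils and is known to be made where tissue is stretched or repaired. Control arrays ranged from 5.41 to 7.32 with a median of 5.78. The ANIT arrays were at 8.11, 7.57, 7.36, 7.37 and 7.25, and the DMN arrays at 8.29, 5.70, 8.45, 7.13 and 7.96. Control 5, at 7.32, lay within the ANIT range, and DMN 2 and DMN 4 lay within the Control range. Col12a1 rose from 5.95 ± 0.63 (SD, n = 9) to 7.53 ± 0.34 (SD, n = 5) after ANIT, 2.99-fold (1.58 ± 0.42 SE, adjusted p = 0.00764), and to 7.51 ± 1.13 (SD, n = 5) after DMN, 2.93-fold (1.55 ± 0.42, adjusted p = 0.0119). The DMN call was lost without DMN 1 or DMN 3 (up to 0.0631) and with a replicate block (0.0967). Without the doubted arrays the fold change of Col12a1 after DMN was 2.00. Its other 2 probe sets gave −0.25 and −0.12 after ANIT and 0.03 and −0.11 after DMN, and with the mean of the probe sets the ANIT call was lost (0.41, adjusted p = 0.0759). After NMF Col12a1 stood at −0.15 (adjusted p = 0.907).

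Col14a1, the fibril-coating type XIV collagen, fell after all 3 compounds. Its Control arrays ran from 9.11 to 10.12 with a median of 9.39. The ANIT arrays were at 8.97, 8.76, 8.25, 8.32 and 8.29, the DMN arrays at 8.62, 9.06, 8.82, 8.44 and 8.31, and the NMF arrays at 8.12, 8.22, 8.56, 7.92 and 8.36. All 15 lay below every Control array. Col14a1 fell 1.91-fold after ANIT (−0.94 ± 0.18 SE, adjusted p = 4.22e-04), 1.74-fold after DMN (−0.80 ± 0.18, adjusted p = 0.00305) and 2.32-fold after NMF (−1.22 ± 0.18, adjusted p = 1.71e-05). The calls held under every alternative run, and its other probe set gave −0.75, −0.68 and −0.50, the first 2 called over all probe sets.

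Col13a1, a collagen that spans the cell membrane, fell after ANIT and DMN. Its Control range was 6.28 to 7.04 with a median of 6.63, the ANIT arrays lay at 5.89, 5.90, 5.70, 5.83 and 6.27, and the DMN arrays at 5.59, 6.28, 5.76, 5.82 and 5.73. The doubted array DMN 2, at 6.28, met the lowest Control, and the other 9 lay below it. Col13a1 fell by 0.76 ± 0.13 after ANIT (adjusted p = 1.24e-04) and by 0.84 ± 0.13 after DMN (adjusted p = 5.65e-05), calls kept under every alternative run that tested it. It was among the 30% dimmest genes and was not tested in the run without these. After NMF its arrays lay at 6.41 to 6.53 (−0.22, not called).

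Col26a1 encodes a short collagen of loose matrix. Its Control arrays ranged from 5.80 to 7.55 with a median of 6.72, the ANIT arrays lay at 5.02, 5.43, 5.04, 5.30 and 5.14, and the DMN arrays at 4.84, 6.68, 6.04, 4.63 and 6.01. The ANIT arrays, all below Control, lay close to the spike range. Col26a1 fell 2.81-fold after ANIT (−1.49 ± 0.33, adjusted p = 0.00187) and 2.05-fold after DMN (−1.04 ± 0.33, adjusted p = 0.0385). The DMN call was lost in 7 of 14 fits without 1 array (without DMN 1, DMN 4 or Control 2, 3, 4, 5 or 9, up to 0.181), and with centring (0.0546). After NMF it stood at −0.98 ± 0.33 (adjusted p = 0.0642).

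Type VI collagen forms beaded filaments around cells. Its 3 main chains fell after NMF: Col6a1 by 0.74 ± 0.20 (adjusted p = 0.0196), Col6a2 by 0.90 ± 0.26 (adjusted p = 0.0256) and Col6a3 by 0.84 ± 0.23 (adjusted p = 0.0184). NMF arrays overlapped with Control in each: Col6a1 at 7.88 to 8.88 against 8.74 to 9.74, Col6a2 at 6.68 to 7.98 against 7.70 to 9.29, and Col6a3 at 6.16 to 7.40 against 6.84 to 8.43. The Col6a1 and Col6a2 calls were lost without NMF 4 or NMF 5 (up to 0.112 and 0.145) and the Col6a3 call without NMF 2 or NMF 5 (up to 0.108) and with centring (0.0683). Dimmer probe sets of Col6a2 and Col6a3 gave 0.16 and 0.14. After DMN, Col6a1 fell by 0.70 ± 0.20 (adjusted p = 0.0231), a call lost without DMN 3 or DMN 4 (up to 0.117) and with centring (0.0594), while Col6a2 stood at −0.45 and Col6a3 at 0.18.

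After ANIT the minor type VI chains were called and the main ones were not. Col6a5 lay at 5.52, 6.18, 6.06, 5.94 and 5.66, below every Control array (6.27 to 7.21, median 6.61), and fell by 0.82 ± 0.22 (adjusted p = 0.00840) under every alternative run that tested it. Col6a6, near background in both groups at 4.11 ± 0.11 (SD, n = 5) and 4.62 ± 0.20 (SD, n = 9), gave −0.51 (adjusted p = 0.0466). That call was lost with centring and in 11 of 14 fits without 1 array, kept only without Control 1, Control 4 or Control 6 (up to 0.107).

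The remaining calls among collagens were small. Col8a2, a short-chain collagen of vessels and cornea, fell by 0.80 ± 0.24 after DMN (adjusted p = 0.0238) and by 0.75 ± 0.24 after NMF (adjusted p = 0.0448). Its DMN call was lost without DMN 4 or DMN 5 (up to 0.105), its NMF call in 9 of 14 fits without 1 array (up to 0.199), and both with centring (0.0630 and 0.103). Col19a1, a fibril-associated chain, fell by 0.84 ± 0.24 after ANIT (adjusted p = 0.0124), where no array overlapped with Control. It also fell by 0.77 ± 0.24 after NMF (adjusted p = 0.0368), a call lost without NMF 1, NMF 4, Control 2, Control 5 or Control 9 (up to 0.285) and with centring (0.0503); NMF 4 stood at 4.26 and the other NMF arrays at 5.48 to 6.19. Col22a1, a chain of tissue junctions, stood at −0.43 ± 0.15 after ANIT (adjusted p = 0.0465), and the call was kept only without ANIT 4, Control 3, Control 4 or Control 5 (up to 0.143) and lost with centring (0.0799) and without the 3 doubted arrays (−0.35, adjusted p = 0.149).

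The integrins that bind collagen or laminin gave 2 calls of 7 after ANIT, both higher, and none after DMN or NMF. Of all genes, 16.5%, 10.4% and 7.48% were called after ANIT, DMN and NMF. Itga6 encodes the alpha-6 subunit of laminin receptors. The ANIT arrays lay at 9.18, 9.42, 9.18, 9.23 and 9.54, closer together than the Control arrays, which ranged from 7.35 to 9.41 with a median of 7.79. The ANIT range overlapped with Control only at Control 5, at 9.41, an array low in GAPDH 5′ signal, as was Control 4, at 9.04. Itga6 rose from 8.07 ± 0.74 (SD, n = 9) to 9.31 ± 0.16 (SD, n = 5), 2.36-fold (1.24 ± 0.34 SE, adjusted p = 0.0107). Its other 3 probe sets gave −0.42, 0.01 and −0.20, and the call was lost with their mean (0.16, adjusted p = 0.419). Itgb4, the beta partner of alpha-6 in epithelia, stood at −0.04, −0.03 and −0.24 after ANIT, DMN and NMF.

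Itgb1, the beta-1 subunit shared by most matrix receptors, lay at 11.36, 10.88, 11.44, 10.45 and 10.41 after ANIT, where Control ranged from 9.73 to 10.74 with a median of 10.32; 3 ANIT arrays exceeded all Controls. It rose 1.58-fold (0.66 ± 0.22, adjusted p = 0.0338), a call lost without ANIT 1, ANIT 2, ANIT 3, Control 1, Control 2 or Control 7 (up to 0.123), and without the 3 doubted arrays (0.53, adjusted p = 0.0718). After DMN it lay at 11.35, 9.91, 11.55, 10.94 and 10.69, with DMN 2 among the Controls, and was not called (0.64 ± 0.22, adjusted p = 0.0555); without the doubted arrays it was (0.89, adjusted p = 0.00229). Itga1, the alpha subunit of a collagen receptor, stood at 0.85 ± 0.53 after ANIT and −0.80 ± 0.53 after DMN, neither called, and Itgav, the alpha-v subunit that binds RGD motifs, at 0.17 in both and −0.72 ± 0.34 after NMF. A dimmer Itgav probe set gave 1.38 ± 0.39 after ANIT (adjusted p = 0.0205 over all probe sets). None of the 7 RGD receptor and platelet integrins was called by limma in these 3 comparisons. After ANIT, DMN and NMF, 2, 0 and 5 of them had an unadjusted p under 0.05, beside 30.9%, 23.2% and 19.6% of all genes.

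Of 8 leukocyte integrins, 1 was called after NMF, where 7.48% of all genes were called, and none after ANIT or DMN. Itgal, the alpha subunit of LFA-1 on lymphocytes and other leukocytes, lay at 7.34, 7.31, 7.62, 8.28 and 7.17 after NMF against 7.88 to 8.76 (median 8.34) in Control. All NMF arrays but NMF 4 lay below Control. Itgal fell by 0.76 ± 0.22 (adjusted p = 0.0275), a call lost without NMF 1, NMF 2 or NMF 5 (up to 0.106), with centring (0.121) and without the arrays low in GAPDH 5′ signal. Itgb2, the beta subunit shared by the leukocyte integrins, stood at 0.05, 0.59 ± 0.24 and −0.18 after ANIT, DMN and NMF; after DMN it was called without the doubted arrays (0.89, adjusted p = 0.00456). Itgam, the alpha subunit of the complement receptor on myeloid cells, stood at −0.71 ± 0.32, −0.34 and −0.29; without the arrays low in GAPDH 5′ signal it was called lower after ANIT (−0.97, adjusted p = 0.00172). Beside these, the 9 macrophage markers summed to 8986.6 to 20352.2 after DMN, 6904 to 12794.4 after NMF and 7762.9 to 10662.7 in Control. Their members went both ways: 3 rose (Lyz2, Gpnmb and Aif1) and 2 fell (Cd14 and Clec4f) after DMN, and 1 rose (Gpnmb) and 2 fell (Csf1r and Clec4f) after NMF. Of the 5 neutrophil markers 4 rose after DMN, where 10.4% of all genes were called. The part of these cells in the integrin values was not tested.

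Of the name matches, Itgb1bp2, which encodes melusin, a muscle protein that binds beta-1 integrin, lay at 5.01, 4.72, 5.04, 5.61 and 4.88 after ANIT, where Control ranged from 5.34 to 6.22 with a median of 6.09. The groups overlapped at ANIT 4. It fell by 0.89 ± 0.19 (adjusted p = 0.00134), kept under every alternative run that tested it. Itgb1bp2 was among the 30% dimmest genes and was not tested in the run without these. Itgb3bp, a centromere protein that also binds beta-3 integrin, lay at 7.05, 6.92, 7.47, 7.44 and 7.32 after DMN against 5.74 to 7.25 (median 6.44) in Control and rose by 0.79 ± 0.25 (adjusted p = 0.0348). That call was lost without DMN 3, DMN 4, DMN 5, Control 2, Control 6 or Control 9 (up to 0.0959). Itgb1bp1, an inhibitor of beta-1 integrin activation, and Itgbl1, a secreted protein with integrin-like repeats, were not called; Itgb1bp1 stood at 0.81 ± 0.37 after DMN and 0.93 ± 0.37 after NMF.

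Further settings ended or added calls against Control. Normalizing the arrays by quantiles ended those of Col24a1, Col6a6 and Itgb1 after ANIT and of Col8a2 after DMN and NMF. Leaving out the 6 arrays low in GAPDH 5′ signal ended those of Col18a1, Col26a1 and Col6a1 after DMN and of Col6a2 and Itgal after NMF. The same setting added calls for Col27a1, Col5a2, Itgad, Itgam and Itgb3bp after ANIT, Col4a1 and Col5a2 after DMN, and Col1a2 and Lamb2 after NMF. Leaving out the doubted arrays ended the ANIT calls of Col22a1, Itgb1 and Lama2 and added calls for Col18a1, Col1a1 and Itga9 after ANIT and for Col4a1, Col5a2, Itgb1 and Itgb2 after DMN. Taking the mean of a gene's probe sets ended those of Col12a1, Itga6 and Itgb1 after ANIT, Col18a1 and Itgb3bp after DMN, and Col6a2 and Col6a3 after NMF. A replicate block ended those of Col12a1, Col22a1, Col6a6, Itga6, Itgb1 and Lamc1 after ANIT. It also ended those of Col12a1, Col18a1 and Itgb3bp after DMN and of Col19a1, Col6a3 and Itgal after NMF. Of the members called higher, Lama5 alone kept its calls with that block. Because the block leaves out Control 6 to 9, it compares with fewer Control arrays, and a part of replicate number in the lost calls was not tested. Fits of the 2 groups alone ended those of Col18a1 and Col26a1 after DMN and of Col19a1, Col5a1, Col6a3 and Lama2 after NMF.

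Caerulein, known for injury to the pancreas, DNP, an uncoupler of mitochondria, and Roziglitazone, a PPAR gamma agonist, gave 0 called members in limma, where 0% of all genes were called. At an unadjusted p under 0.05 there were 5 members after Caerulein, 2 after DNP and 7 after Roziglitazone, beside 3.81%, 1.4% and 7.34% of all genes. All 5 after Caerulein and both after DNP were lower, Col1a1 being in both sets, as were 6 of the 7 after Roziglitazone, Itga6 at 0.76 being the exception. Col1a1 had −1.04 ± 0.33 after Caerulein and −0.77 ± 0.33 after DNP, so that its Caerulein arrays, at 7.92, 7.43, 8.35, 7.97 and 7.53, overlapped with those of NMF. The median fold change of the members was −0.07, −0.01 and −0.15 after the 3 compounds.

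Direct comparisons of compounds subtract no Control mean, but their test uses the spread within all 39 arrays, Control included. ANIT against NMF gave 9 called members, 8 higher in ANIT, where 6.61% of all genes were called, 3.76% higher and 2.86% lower. Col1a1 was 4.16-fold higher (2.06 ± 0.37 SE, adjusted p = 4.66e-04), no ANIT array, at 8.13 to 10.64, reaching down to the highest NMF array at 7.92. Col18a1 was 1.95-fold higher (0.96 ± 0.16, adjusted p = 1.08e-04), although ANIT 3, at 10.87, lay below NMF 3, at 10.94. Lama5 (2.21, adjusted p = 0.00277) and Col12a1 (1.73, adjusted p = 0.0202) were higher too. The others higher in ANIT were Col5a1 (0.53), Col5a2 (0.76), Col6a2 (0.95) and Col6a3 (0.94), and Col13a1 (−0.53) was lower. The calls of Col1a1, Col18a1 and Lama5 held in all 10 fits without 1 array, that of Lama5 being lost with the mean of its probe sets (adjusted p = 0.0599), and the other 6 were lost in 3 to 7 of them. Those of Col5a1 and Col6a2 were also lost in a fit of the 2 groups alone. The count was 3 without NMF 5 and 14 without ANIT 3, 15 without the 3 doubted arrays and 24 without the 6 low in GAPDH 5′ signal, where 3.41%, 8%, 9.36% and 12.7% of all genes were called.

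DMN against NMF gave 7 called members, 6 higher in DMN, where 4.66% of all genes were called, 3% higher and 1.66% lower. Lama5 was 11.5-fold higher (3.52 ± 0.47, adjusted p = 6.42e-06), Col12a1 3.25-fold (adjusted p = 0.0258) and Itgal 2.13-fold (1.09 ± 0.25, adjusted p = 0.00624). Col6a3 (1.02, adjusted p = 0.0141), Col5a2 (0.91, adjusted p = 0.0121) and Col4a1 (0.64, adjusted p = 0.0291) were higher and Col13a1 lower (−0.62, adjusted p = 0.00927). The Col5a2 arrays lay at 7.81 to 8.65 in DMN and 7.15 to 7.66 in NMF and did not overlap. Col3a1, which fell against Control in both, differed by −0.03 ± 0.23 between them (adjusted p = 0.989). The calls of Col12a1 and Col4a1 were each lost in 6 of 10 fits without 1 array and that of Col6a3 without NMF 2 or NMF 5. Without NMF 2 or without NMF 5 there were 4 calls and without DMN 2 there were 9, where 3.33%, 3.55% and 6.53% of all genes were called. In a fit of the 2 groups alone the calls of Col12a1, Col13a1, Col4a1, Col6a3 and Itgal were lost, where 1.31% of all genes were called.

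ANIT against DMN gave 1 called member, where 2.53% of all genes were called, 1.46% higher and 1.07% lower: Col18a1 was higher in ANIT (0.78 ± 0.16, adjusted p = 0.00631). In a fit of the 2 groups alone this call was lost (adjusted p = 0.181), and 0% of all genes were called. Lama5 stood at −1.32 ± 0.47 (adjusted p = 0.124) with all arrays. ANIT 3 and DMN 2, both in doubt, belong to the 2 groups compared. Leaving out ANIT 3 alone gave 6 calls, where 7.48% of all genes were called. Without the 3 doubted arrays 8 members were called, where 7.85% of all genes were. Lama5 was then lower in ANIT than in DMN (−2.23, adjusted p = 2.38e-05), as was Itgb2 (−0.997, adjusted p = 0.0113). Col1a1 (1.56, adjusted p = 0.00275), Col1a2 (1.41, adjusted p = 0.0434), Col3a1 (0.99, adjusted p = 0.00286), Itga1 (2.16, adjusted p = 0.0360), Itga5 (0.98, adjusted p = 0.0293) and Col18a1 were higher in ANIT.

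DMN and DNP share vehicle, route and dose in mg/kg, so their comparison holds the vehicle constant. It gave 8 called members, 3 higher and 5 lower in DMN, where 6.89% of all genes were called, 3.85% higher and 3.04% lower. Lama5 was 14.5-fold higher in DMN (3.86 ± 0.47 SE, adjusted p = 1.07e-05), its DNP arrays lying at 5.12, 5.28, 4.64, 4.75 and 5.63. Col12a1 (1.93 ± 0.47, adjusted p = 0.00895) and Col4a1 (0.56 ± 0.18, adjusted p = 0.0495) were higher. Col3a1 (−0.99 ± 0.23, adjusted p = 0.00566), Col13a1 (−0.76), Col14a1 (−0.74), Lama2 (−0.61) and Col26a1 (−1.19) were lower. With centring 4 members were higher and 2 lower, where 928 and 171 of all genes were. The calls of Col14a1, Lama2 and Col26a1 were then lost (adjusted p = 0.1002, 0.110 and 0.0713). Col4a1 was lost in 6, Col26a1 in 7, Lama2 in 5 and Col14a1 in 4 of 10 fits without 1 array. Without DMN 4 there were 4 calls, where 5.14% of all genes were called. In a fit of the 2 groups alone Lama5 and Col3a1 kept their calls, where 1.87% of all genes were called. The other calls were lost, among them Col12a1 (adjusted p = 0.0647 in limma) and Col13a1 (0.0526).

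**Figure D4:**
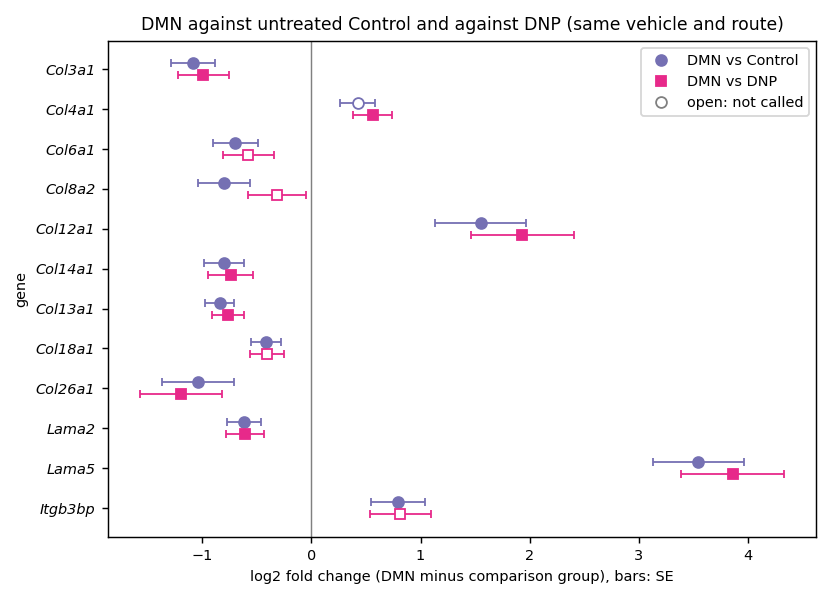
Log2 fold change with SE of the 12 members called in DMN (n = 5) against Control (n = 9, circles) or against DNP (n = 5, squares, same vehicle and route); filled symbols were called by limma at an adjusted p under 0.05. Lama5 stands at 3.54 and 3.86 and Col3a1 at −1.08 and −0.99.

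NMF and Caerulein share saline and injection into the peritoneum. NMF against Caerulein gave 2 called members, where 5.49% of all genes were called, 3.43% higher and 2.06% lower. Col14a1 was lower in NMF (−0.86 ± 0.21, adjusted p = 0.00802), with Caerulein arrays at 9.03, 9.25, 9.05, 9.06 and 9.08 above every NMF array. Col18a1 was lower as well (−0.59 ± 0.16, adjusted p = 0.0180), a call lost without NMF 4 or NMF 5 (up to 0.0675) and with centring (0.109). Col1a1 differed by −0.35 ± 0.37 (adjusted p = 0.706) and Col3a1 by −0.64 ± 0.23 (adjusted p = 0.104). Without the 3 doubted arrays, none of them in these groups, Col3a1 was called lower in NMF (−0.64, adjusted p = 0.0424). Without the 6 arrays low in GAPDH 5′ signal Col19a1 was called lower (−0.85, adjusted p = 0.0396). Of the 12 members called lower in NMF against Control, Col14a1 and Col18a1 were called against Caerulein with all arrays. A p above the threshold does not show that the values were alike.

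Pairs of members whose products share a molecule or a fibre were compared across the 39 arrays after each group's mean was removed, for 9 pairs, with two-sided permutation tests of 100000 resamples adjusted over the 9. Col1a1 followed Col3a1 (Pearson r = 0.62, Spearman rho = 0.56, permutation adjusted p = 2.70e-04 and 0.00144) and Col1a2 (r = 0.53, rho = 0.53, adjusted permutation p = 0.00171 and 0.00144). Itgal followed Itgb2, with which it forms LFA-1 (r = 0.57, rho = 0.55, adjusted permutation p = 0.00121 and 0.00144). Without the 2 arrays farthest from the median of the x gene these r were 0.55, 0.39 and 0.48. For Lamb1 and Lamc1 r was 0.35 and rho 0.42 (adjusted permutation p = 0.0638 and 0.0201), with r = 0.29 without the 2 farthest arrays. The other pairs gave r = 0.08 for Col4a1 and Col4a2, −0.12 for Itgam and Itgb2, −0.23 for Itga1 and Itgb1, −0.14 for Itga6 and Itgb4, and −0.04 for Itgav and Itgb5, none with an adjusted permutation p under 0.05.

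The pair values rested on array sets to different degrees. Without the 3 doubted arrays (n = 36) r was 0.53 for Col1a1 and Col3a1 (adjusted permutation p = 0.00783), 0.34 for Col1a1 and Col1a2 (0.0916) and 0.41 for Itgal and Itgb2 (0.0594). Without the 6 arrays low in GAPDH 5′ signal (n = 33) Col1a1 and Col1a2 reached r = 0.87 and Itgav and Itgb5 r = 0.56 (adjusted permutation p = 9.00e-05 and 0.00191), while Lamb1 and Lamc1 stood at r = 0.08; the first of these p comes from the smallest that 100000 resamples can give. Within the 9 Control arrays alone r was 0.72, 0.53 and 0.56 for the 3 pairs named first, with exact permutation p adjusted over the 9 pairs of 0.226, 0.292 and 0.292.

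**Figure D5:**
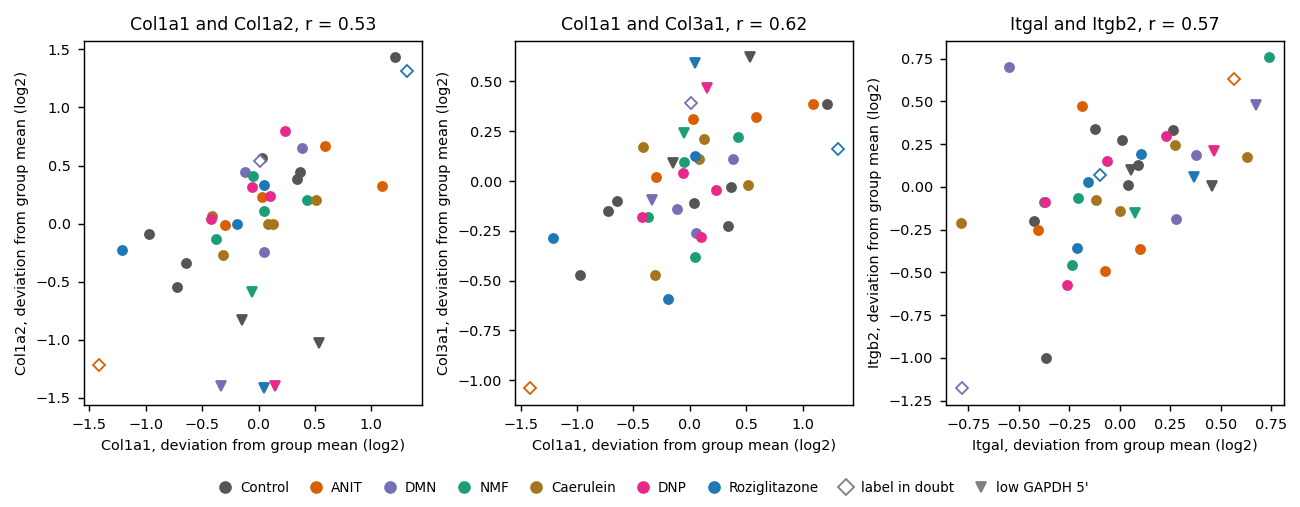
Deviation of each of 39 arrays from its group mean (log2) for Col1a1 with Col1a2, Col1a1 with Col3a1, and Itgal with Itgb2, coloured by group; open diamonds are the 3 arrays with labels in doubt, triangles the 6 low in GAPDH 5′ signal. Pearson r is 0.53, 0.62 and 0.57, and the triangles sit low in Col1a2 for their Col1a1.

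Other genes of the pathway were counted on lists of known function. Of all genes, 16.5% were called after ANIT, 10.4% after DMN and 7.48% after NMF. Of 19 collagen processing genes, 3 were higher and 2 lower after ANIT, 3 and 1 after DMN, and 1 and 1 after NMF (26.3%, 21.1% and 10.5% called). Pcolce, the enhancer that speeds removal of the collagen propeptide, rose 2.00-fold after ANIT (adjusted p = 0.0115) and 2.18-fold after DMN (adjusted p = 0.00679). P4ha1, a prolyl hydroxylase subunit, rose 1.97-fold after DMN (adjusted p = 0.0188), and Lox, which cross-links collagen, fell 2.44-fold after NMF (adjusted p = 0.0458). Of 20 matrix turnover genes, 2 were higher and 1 lower after ANIT, 4 and 0 after DMN and 0 and 1 after NMF (15%, 20% and 5% called). Adam8, a membrane protease of leukocytes, rose 15.1-fold after DMN (3.91 ± 0.46, adjusted p = 1.51e-06), Timp1, an inhibitor of metalloproteinases, rose 2.88-fold after ANIT (adjusted p = 6.55e-04), and Mmp2, a gelatinase of stellate cells, fell 1.80-fold after NMF (adjusted p = 6.99e-04).

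Of 17 matrix ligands and partners, 2 were higher and 2 lower after ANIT, 2 and 0 after DMN and 0 and 3 after NMF. These were 23.5%, 11.8% and 17.6% of the list, beside 16.5%, 10.4% and 7.48% of all genes. Dag1, the dystroglycan receptor of laminin, rose 1.63-fold after ANIT (adjusted p = 0.00130), Nid2, which links laminin to type IV collagen, fell 1.60-fold (adjusted p = 9.08e-04), and Spp1, osteopontin, rose 2.48-fold after DMN (adjusted p = 4.26e-04). Of 24 adhesion complex genes, 9 were higher and 1 lower after ANIT (median 0.32), 6 and 0 after DMN (median 0.00) and 0 and 1 after NMF (median −0.11). These were 41.7%, 25% and 4.17% of the list. Cd151, a tetraspanin bound to laminin-receptor integrins, rose 1.96-fold after ANIT (adjusted p = 1.27e-05), and Flna, the actin linker filamin A, 1.91-fold after DMN (adjusted p = 0.00110). Parva, an adaptor behind integrins, fell 1.57-fold after NMF (adjusted p = 0.0151). Of 19 TGF-beta and matrix signals, 3 were higher and 1 lower after ANIT, 2 and 2 after DMN and 0 and 2 after NMF (21.1%, 21.1% and 10.5% called). Pdgfa, a growth factor for stellate cells, rose 4.01-fold after ANIT (adjusted p = 1.18e-05), Ccn1 3.85-fold and Ccn2 2.83-fold, while Pdgfra, a receptor of it, fell 2.20-fold after NMF (adjusted p = 0.00457).

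Markers of the cells that make or carry these molecules differed between groups. Beside the counts below, 16.5%, 10.4% and 7.48% of all genes were called after ANIT, DMN and NMF. The 9 stellate and myofibroblast markers summed to intensities of 2181.9 to 3899.5 in Control, 3172.8 to 4670.6 after ANIT, 2957.8 to 6406.7 after DMN and 1739.3 to 3560.9 after NMF. Of the 9, 3 rose after DMN (Tagln, Rgs5 and Vim), 1 rose (Vim) and 1 fell (Lrat) after ANIT, and 1 fell (Lrat) after NMF. Of the 7 endothelial markers 2 fell after ANIT, 3 after DMN and 0 after NMF; Stab2, a scavenger receptor of sinusoids, fell 1.92-fold and 4.23-fold. The 4 cholangiocyte markers summed to 407.4 to 890.8 in Control and 478.5 to 1277.8 after ANIT. They summed to 400.3 to 811.5 after DMN and 716.9 to 1054.7 after NMF. Epcam was 2.35-fold higher and Krt19 1.87-fold lower after ANIT. Epcam was also called higher after NMF (log2 fold change 1.28) and Krt19 lower after DMN (−0.78). Of the 3 platelet markers Pf4 rose 6.90-fold after DMN. Ppbp (6.92 in Control and 7.02 after DMN) and Gp9 (6.77 and 6.82) were not called. Group means at or below 4.89 were found for Cftr among the cholangiocyte markers, Mmp8 and, after ANIT, Cxcr2 among the neutrophil markers, and Cd3d among the lymphocyte markers. The part of these cells in the collagen, laminin and integrin values was not tested.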

How the data were processed

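Total RNA was hybridised to 39 GeneChip rat arrays, 1 per rat. The authors deposited 1 intensity per probe set and array on a linear scale, 5.4 to 23152.1. Array medians ran from 77.8 to 108.7, while array means lay closer together, at 347.8 to 363.4. The submitters' processing notes name RMA and the affy package, and their settings are not given in the sources used here. Whether the deposited values had been quantile normalized was not tested. Precision is set by how many arrays a group holds. Here log2 was taken, which the design had assumed to be done. Of 31099 probe sets, 20826 carried 1 symbol in the platform annotation, 436 several and 9780 none, and 57 were controls; only the first were used. The brightest probe set stood for each of 14217 genes. limma 3.58.1 (R 4.3.3) was fitted to 7 groups, with 11 comparisons and Benjamini-Hochberg adjustment over all genes; it was first tested on simulated data. The labels call the rats of a group biological replicates. The members and lists were chosen with earlier results of these data known. Genes named are members called in a comparison, set pairs and chains, and name matches, with array values for the 12 of lowest adjusted p. Of each other list up to 3 called genes of lowest adjusted p were eligible. Replicate numbers were shared between groups, except those of Control 6 to 9, and the labels do not say whether they mark a batch. The main fit did not use them. After group means were removed, arrays of the same number had r over 0.1 in 0 of 5 pairs for DMN against Control. It was 4 of 5 for ANIT against Control, DMN against NMF and NMF against Caerulein, with r up to 0.66 in DMN against NMF. Alternatives were centring, quantile normalization, log2(intensity + 16), leaving out the 30% dimmest genes, the mean of probe sets, array weights, a replicate block, 2-group fits and leaving out arrays. Promoter sequences are from RefSeq (GRCr8). Promoters of Col1a1 and Col3a1 were not used here.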

Additional observations from a re-analysis of the deposited data

Results flagged for a closer look

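In 6 of 108 sets of arrays (27 members in 4 groups), 1 array stood apart from the rest of its group by Dixon's criterion, which chance meets in about 1 group in 20. Lama5 was 7.49 in DMN 2, where the other DMN arrays lay at 9.07 to 9.49. Col3a1 was 10.29 in ANIT 3 against 11.36 to 11.72, and Col6a2 was 7.55 in the same array against 8.49 to 8.78. These 3 values belong to arrays whose labels were in doubt. Col24a1 was 5.23 in ANIT 1 against 5.77 to 5.95 in the other ANIT arrays. Col4a1 was 9.69 in Control 3 against 9.07 to 9.38, and Lama2 was 8.14 in Control 5, an array low in GAPDH 5′ signal, against 7.29 to 7.68.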

How the results depend on the processing

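Of 65 calls of a member in a comparison, none turned its direction under any alternative. Centring kept 49 and lost 16, quantile normalization kept 52, the mean of probe sets 50, 2-group fits 45, leaving out the doubted arrays 62 and leaving out the arrays low in GAPDH 5′ signal 58; the causes were not tested. The main fit did not use the replicate numbers, whose meaning the labels do not give. With a replicate block, which leaves Control 6 to 9 out of the comparisons with Control, 50 calls were kept and 15 lost. Array weights gave 29 calls in ANIT, 26 in DMN and 1 in Roziglitazone against Control, 12 in ANIT against DMN, 30 in ANIT against NMF, 14 in DMN against NMF, 21 in DMN against DNP and 4 in NMF against Caerulein, where 34%, 24.4%, 0.0633%, 12.4%, 20.6%, 13.1%, 18.4% and 12.5% of all genes were called, in the same order. Without the 30% dimmest genes, which left 47 members, there were 7 in ANIT and 7 in DMN against Control, 4 in DMN against NMF and 4 in DMN against DNP. Of all genes kept, 21.2%, 14.1%, 6.1% and 9.92% were called. The 2-group fits gave 0 in ANIT against DMN and 2 in DMN against both NMF and DNP, where 0%, 1.31% and 1.87% of all genes were called. The mean of probe sets gave 2 in ANIT against DMN and 4 in ANIT against NMF, and quantile normalization 5 in the latter, where 2.41%, 5.83% and 6.96% of all genes were called. Centring gave 7 in NMF against Control and 1 in NMF against Caerulein, where 7.34% and 6.42% of all genes were called. Leaving out the doubted arrays gave 8 in ANIT against DMN and 15 in ANIT against NMF, and leaving out those low in GAPDH 5′ signal 24 in the latter. Of all genes, 7.85%, 9.36% and 12.7% were called. Leaving out 1 array at a time gave 11 to 17 in ANIT, 6 to 15 in DMN and 6 to 13 in NMF against Control, 1 to 6 in ANIT against DMN, 3 to 14 in ANIT against NMF, 4 to 9 in DMN against NMF, 4 to 10 in DMN against DNP and 1 to 3 in NMF against Caerulein. The share of all genes called ran from 11.9% to 19.4%, 7.08% to 12.8%, 5.06% to 7.97%, 0.457% to 7.48%, 3.41% to 8%, 3.21% to 6.53%, 4.47% to 9.78% and 3.61% to 5.16%, in the same order. Among the pairs, Lamb1 with Lamc1 reached r = 0.40 with centring (adjusted permutation p = 0.0238), and signs turned for Itgam with Itgb2 (0.18) and Itga6 with Itgb4 (0.16) in Control arrays alone and for Itgav with Itgb5 with centring (0.13) and without the arrays low in GAPDH 5′ signal (0.56). Control arrays alone gave 0.53 for Col1a1 with Col1a2, 0.72 for Col1a1 with Col3a1 and 0.56 for Itgal with Itgb2, and leaving out the doubted arrays 0.34 for the first and 0.41 for the last.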
